A study of Mus musculus with 2 samples.

Results

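The elastic fibre and microfibril genes described here are 10 named genes, Eln, Fbn1, Fbn2, Fbln1, Fbln2, Fbln5, Mfap2, Mfap4, Mfap5 and Emilin1, taken from the 43346 mouse gene rows of a bulk total RNA-seq series. They were chosen by name, and each of the 10 was found in both gene tables. The tissue was the embryonic facial prominence of B6NCrl mouse embryos at 13.5 days, with RNA pooled from male and female embryos. The labels describe the embryos as healthy and name no treatment or genetic change. The series holds 1 group of 2 libraries, biological replicates 1 and 2, which carry separate biosample IDs under 1 shared donor ID. With a single group there is no comparison between conditions, so levels are given as mean ± SD over the 2 libraries, and that SD measures only the spread between these samples, which may be partly technical.

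Elastic fibres give tissues the ability to stretch and recoil. Tropoelastin, the product of Eln, is secreted as a monomer, gathered by fibulins and crosslinked by lysyl oxidases onto a scaffold of microfibrils. Microfibrils are bundles of fibrillin decorated with small glycoproteins, they also exist without elastin, and they hold latent TGF-beta and BMP growth factors in the matrix. The facial prominences are the swellings that form the face, and most of their mesenchyme comes from the cranial neural crest.

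The libraries held 28542452 and 22719352 expected counts on gene rows in replicates 1 and 2, and ERCC spike-ins took 6.27% and 4.45% of all expected counts. Their share of the TPM total was 13.4% and 9.68%. All 5 markers of cranial mesenchyme, the main cells of the labelled tissue, were detected, with Msx1 at 440.38 and 399 TPM and Alx1 at 238 and 264 TPM. TPM is a level per transcript length, scaled to the same total in each library, and it is the scale used for every comparison of levels between genes. Replicate 2 stood apart in markers of other organs. The summed level of 5 liver markers was 3.47 TPM in replicate 1 and 194 TPM in replicate 2, with Apob at 0 in replicate 1. The summed level of 5 heart markers was 2.64 and 25.2 TPM, with none at 0 in either library. In bulk tissue, fewer cells of a type and less RNA per cell cannot be told apart.

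Splice forms of both larger fibulins and the transcription starts of Mfap2 carry part of the results, so their sequences come first. Fibulins are secreted proteins built from calcium-binding EGF-like repeats, and they lie in elastic fibres and basement membranes. The full-length coding transcripts of Fbln2, ENSMUST00000041544.7 with and ENSMUST00000113498.4 without it, differ by exon 9 at chr6:91259630-91259770 on the + strand of GRCm38, a coding exon of 141 bases that leaves the frame intact and adds 47 codons. Both sequences below are from the GENCODE M21 transcripts, 5′ to 3′. Capitals mark exon 9 in the first and the first 15 bases of the exon after the junction in the second, and the lower-case flanks are 15 bases of the neighbouring exons.
Fbln2 with exon 9: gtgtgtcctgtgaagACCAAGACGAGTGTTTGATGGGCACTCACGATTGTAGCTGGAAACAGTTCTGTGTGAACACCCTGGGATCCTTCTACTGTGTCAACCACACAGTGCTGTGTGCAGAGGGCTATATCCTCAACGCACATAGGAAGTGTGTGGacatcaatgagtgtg
Fbln2 without exon 9: gtgtgtcctgtgaagACATCAATGAGTGTG

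Fbln1 has 2 coding transcripts whose ends differ. Both run to exon 14 and then splice to a different exon 15, at chr15:85251445-85251885 in ENSMUST00000109432.3 and at chr15:85263259-85263401 in ENSMUST00000057410.9, on the + strand of GRCm38. The first codes for 685 residues, the form known as fibulin-1C, and the second for 705 residues, the form known as fibulin-1D. The lines below show the last 15 bases of exon 14 in lower case and the first 15 coding bases of each exon 15 in capitals.
fibulin-1C form of Fbln1: ccgctccgcagacacCCGCTGTGAGCGCTT
fibulin-1D form of Fbln1: ccgctccgcagacacCTTCCGCCAAGAGAA

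Mfap2 has an upstream and a downstream start, 219 bases apart on the + strand of chromosome 4. The downstream start is taken at the first base of a short noncoding transcript, and the leading coding transcript begins 7 bases further on. The 150 bases before each start are given from the RefSeq promoter table (GRCm38.p6), chr4:141010487-141010636 for the downstream start and chr4:141010268-141010417 for the upstream one, and neither window overlaps an exon of a listed Mfap2 transcript. Capitals mark matches, on either strand, to the 3 motifs searched, which do not overlap here: the TATA box (TATAAA), the CCAAT box (spelled as its name) and the GC box (GGGCGG).
downstream start: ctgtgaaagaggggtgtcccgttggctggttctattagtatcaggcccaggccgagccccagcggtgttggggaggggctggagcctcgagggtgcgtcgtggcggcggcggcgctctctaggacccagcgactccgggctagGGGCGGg
upstream start: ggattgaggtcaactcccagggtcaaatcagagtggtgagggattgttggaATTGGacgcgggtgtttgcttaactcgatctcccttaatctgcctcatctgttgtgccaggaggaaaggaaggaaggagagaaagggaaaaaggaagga
The downstream window held GGGCGG and the upstream window held CCAAT on the reverse strand. Of the 32851 windows of this length in the table, which end at RefSeq starts of all genes, 28.6% held GGGCGG, 24.5% CCAAT and 7.57% TATAAA. GC content was 69.3% in the downstream window and 49.3% in the upstream one, against a median of 54% over all windows. Of the 10 genes, 6 had an entry in that table.

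All 10 genes were present at 1 TPM or more in both libraries, where 60.9% of 21474 protein-coding genes reached that level. Of them, 5 reached 100 TPM in both libraries (Mfap2, Fbln2, Mfap4, Fbln1 and Emilin1), a level that 6.48% of protein-coding genes reached. Another 4 (Fbn2, Eln, Fbln5 and Fbn1) lay between 10 and 100 TPM, and Mfap5 was just above the limit of 1 TPM. The median of the 10 mean levels was 120 TPM, beside 4.68 TPM over all protein-coding genes and 18.9 TPM over the 13078 detected ones. Summed TPM of the 10 genes was 1492 in replicate 1 and 1655 in replicate 2. The genes are well known and were listed by name, so these values describe them and are not a test of the group.

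**Figure D1:**
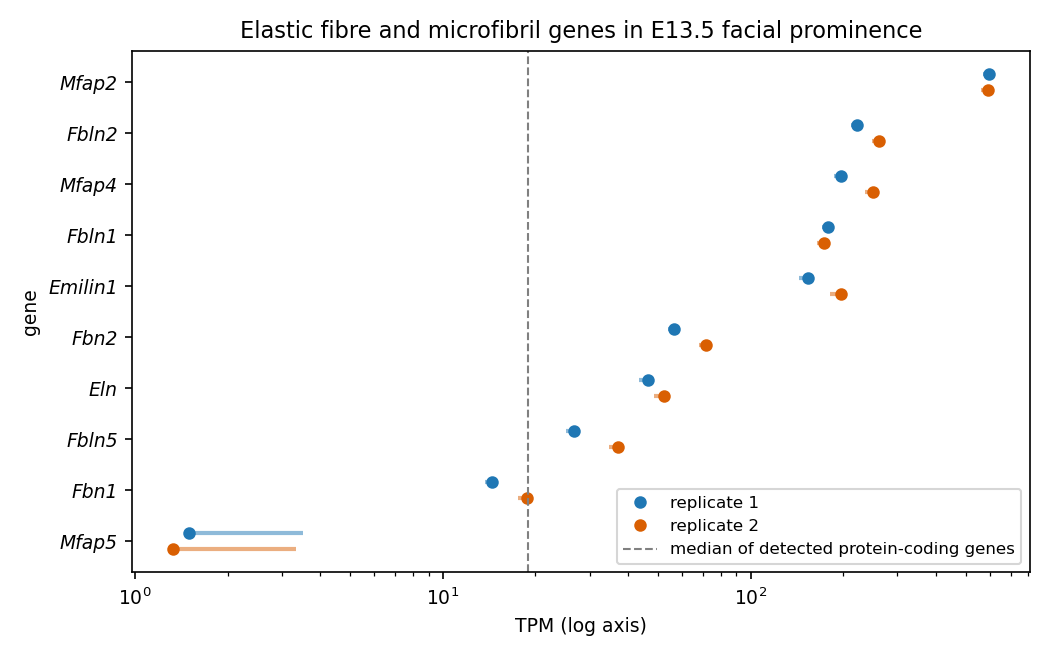
TPM (log axis) of each of the 10 genes in replicate 1 (blue) and replicate 2 (orange). Points are deposited TPM, faint bars are the deposited credibility intervals, and the dashed line is the median of the detected protein-coding genes, 18.9 TPM. Levels run from 1.33 TPM for Mfap5 to 595 TPM for Mfap2, and only Mfap5 has a wide interval.

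Fibrillins form the backbone of the microfibril. Fbn2 (ENSMUSG00000024598.8, chr18:58008623-58210487, - strand), the fibrillin known for its expression in development, was at 56.5 TPM in replicate 1 and 71.7 TPM in replicate 2, a mean of 64.1 ± 10.7 TPM (SD, n = 2). Fbn1 (ENSMUSG00000027204.9, chr2:125300594-125507993, - strand), the gene mutated in human Marfan syndrome, was at 14.5 and 18.8 TPM, a mean of 16.6 ± 3.01 TPM. Both were lower in replicate 1, and the ranges of the genes did not overlap. Fbn2 was 3.90-fold above Fbn1 in replicate 1 and 3.82-fold in replicate 2, a mean log2 ratio of 1.95 ± 0.02. The rule used for any pair was that the deposited credibility intervals of TPM stay apart in both libraries and that the mean log2 ratio of TPM exceeds 3 times its SD, and this pair met it. The deposited intervals lie around the posterior mean TPM, and the TPM itself was outside its interval for 3 of the 10 genes in replicate 1 and 7 in replicate 2, so they are not error bars of the TPM. Both fibrillin genes overlap a gene on the opposite strand, Gm26507 for Fbn2 and Gm9913 for Fbn1. Reads from an overlap cannot be told apart if the libraries do not keep strand. The overlaps were 236 bases in Fbn2 and 2793 bases in Fbn1. The partner genes held 144 and 111 counts (Gm26507) and 16.3 and 12.8 counts (Gm9913). These were far below the 12418 and 12007 counts of Fbn2 and the 2991 and 2949 counts of Fbn1.

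Microfibril-associated glycoproteins bind fibrillin. Mfap2 (ENSMUSG00000060572.13, chr4:141010418-141015984, + strand) encodes the first of them, MAGP-1, and was the highest of the 10 genes, at 595 and 592 TPM, a mean of 594 ± 2.05 TPM. Rescaled without spike-in rows its mean was 672 ± 22.4 TPM, so the small SD depends on the spike-in share. It ranked 174 among the protein-coding genes and alone made up 39.9% and 35.8% of the summed TPM of the 10. Mfap5 (ENSMUSG00000030116.10, chr6:122505845-122529290, + strand) encodes the related MAGP-2 and was the lowest, at 1.5 and 1.33 TPM, from 36 and 27 expected counts. Mfap2 exceeded Mfap5 397-fold in replicate 1 and 445-fold in replicate 2 on the TPM scale, and 237-fold and 249-fold on the scale of the deposited posterior mean TPM, where Mfap5 was at 2.45 and 2.3 TPM. The level of Mfap5 is loose: its deposited interval ran from 1.49 to 3.52 TPM in replicate 1 and from 1.39 to 3.34 TPM in replicate 2, and its expected counts are few. Mfap4 (ENSMUSG00000042436.8, chr11:61485431-61488900, + strand), a fibrinogen-domain glycoprotein that binds elastin and fibrillin but is no relative of MAGP-1, was at 196 and 250.05 TPM, a mean of 223 ± 38.1 TPM. It shares 89 bases with Mapk7 on the opposite strand, a gene with 3497 and 2732 counts beside the 6337 and 6156 of Mfap4.

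Eln (ENSMUSG00000029675.9, chr5:134702593-134747323, - strand), which encodes tropoelastin itself, was at 46.5 and 52.4 TPM, a mean of 49.5 ± 4.14 TPM. It was thus below Fbn2 by 1.22-fold and 1.37-fold in replicates 1 and 2, and below Mfap2 by 12.8-fold and 11.3-fold. Both pairs were apart, but the pair with Fbn2 met the rule only narrowly, at a log2 ratio of 0.367 ± 0.121. Eln was above Fbn1 in both libraries, by 3.21-fold and 2.79-fold. An annotated antisense gene, Gm30003, overlaps 282 bases of Eln, and the deposited tables had no row for it.

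Fibulins connect elastin to the microfibrils. Fbln2 (ENSMUSG00000064080.8, chr6:91212455-91272540, + strand) was the highest fibulin, at 222 and 261 TPM, a mean of 242 ± 27.3 TPM. Fbln1 (ENSMUSG00000006369.10, chr15:85205949-85286535, + strand) was at 179 and 174 TPM, a mean of 176 ± 3.44 TPM, or 199 ± 9.86 TPM when rescaled without spike-in rows. Fbln5 (ENSMUSG00000021186.8, chr12:101746565-101819055, - strand), which binds tropoelastin and Loxl1 and is needed for elastic fibre assembly in mice, was at 26.8 and 37.1 TPM, a mean of 31.9 ± 7.33 TPM. Fbln5 was below both other fibulins in each library, by 8.31-fold and 7.03-fold from Fbln2 and by 6.67-fold and 4.68-fold from Fbln1. Fbln2 was 1.24-fold and 1.5-fold above Fbln1, but that pair did not meet the rule, because its log2 ratio of 0.45 ± 0.19 was under 3 times its SD. Emilin1 (ENSMUSG00000029163.7, chr5:30913402-30921277, + strand), a glycoprotein found where elastin meets microfibrils, was at 154 and 197 TPM, a mean of 175 ± 30.4 TPM.

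From highest to lowest mean TPM the order was Mfap2, Fbln2, Mfap4, Fbln1, Emilin1, Fbn2, Eln, Fbln5, Fbn1 and Mfap5. Of 45 pairs, 41 were apart by the rule. The 4 pairs that were not apart all lie among Fbln2, Mfap4, Fbln1 and Emilin1, which took places 2 to 5. Of the 9 neighbouring pairs in the order, 6 were apart, and Fbln2 with Mfap4, Mfap4 with Fbln1, and Fbln1 with Emilin1 did not meet the rule. Fbn2 with Eln and Eln with Fbln5 met it only narrowly, at log2 ratios of 0.367 ± 0.121 and 0.647 ± 0.213. Mfap4 was above Fbln1 in both libraries, by 1.10-fold and 1.44-fold, a log2 ratio of 0.33 ± 0.28, and Fbln2 above Mfap4 by 1.13-fold and 1.04-fold, a log2 ratio of 0.12 ± 0.08. Fbln1 was 1.16-fold above Emilin1 in replicate 1 and 0.882-fold of it in replicate 2, so the order of that pair turned between libraries.

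The levels of Fbln2 and Emilin1 include much TPM from short transcripts. Of the 10 genes, 3 had 1 listed transcript (Eln, Fbn2 and Fbln5) and 7 had several. In all 7 the same transcript led in both libraries, 6 of 6 among those at 5 TPM or more, where 91.7% of 7954 multi-transcript genes did the same. In Fbln2, the full-length form without exon 9 led with 56.4% and 52.6% of the gene's TPM, and ENSMUST00000137029.1, annotated as a retained-intron transcript of 1612 bases from the 3′ part of the gene, held 39.8% and 44.3%. In Emilin1, the full-length ENSMUST00000031055.5 held 61.4% and 53.4%, and ENSMUST00000172453.1, a transcript of 601 bases with no entry in the GENCODE M21 annotation, held 33% and 41.8%. Each short transcript had a larger share in replicate 2. Whether they are separate RNAs or hold reads from the 3′ end of the full-length transcript was not tested, so the gene-level TPM of Fbln2 and Emilin1 has that limit.

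Counting only transcripts with 0.5 or more of the length of the longest transcript detected, an alternative chosen after seeing the data, moved Fbln2 to 126 and 139 TPM and Emilin1 to 99.2 and 110 TPM. Fbln2 then fell from place 2 to place 4, below Mfap4 at 196 and 250.05 TPM and Fbln1 at 178 and 174 TPM. On that scale the mean log2 ratio of Fbln2 to Mfap4 was -0.74 instead of 0.12, and that of Fbln2 to Fbln1 was -0.41 instead of 0.45. Mfap2 stayed first and Emilin1 in place 5, and Fbn2, Eln, Fbln5, Fbn1 and Mfap5 kept the last 5 places in the same order.

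**Figure D2:**
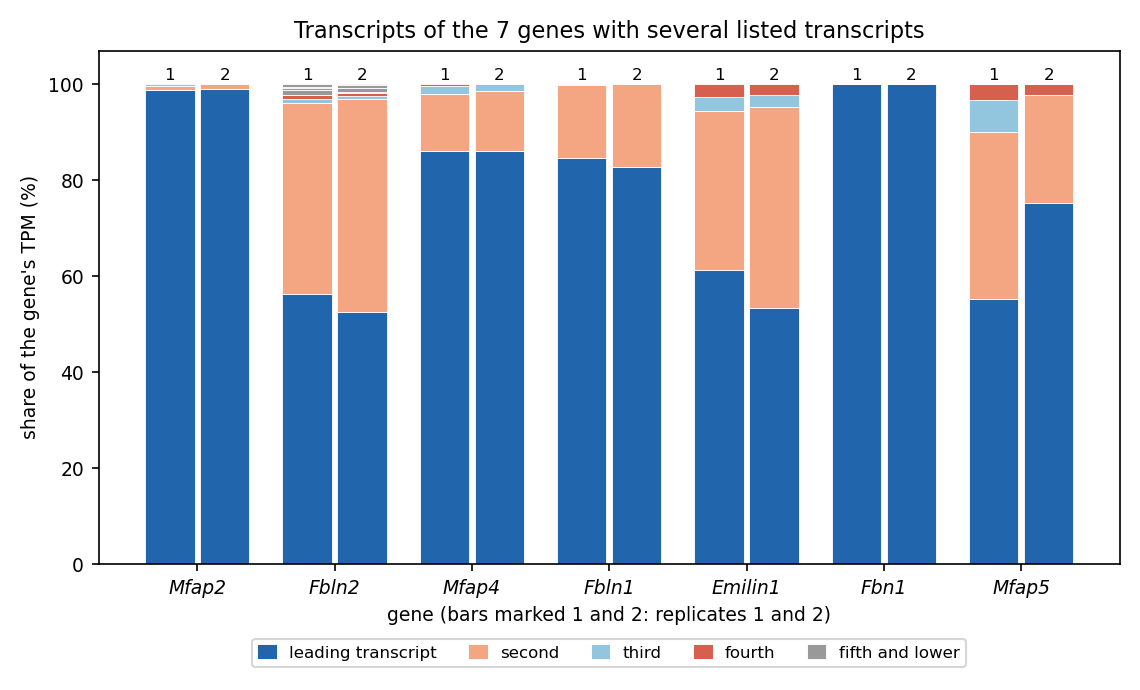
Share of each listed transcript in its gene's TPM (%), for the 7 genes with several listed transcripts, with bars marked 1 and 2 for replicates 1 and 2. Colours give the order of the transcripts by mean share. The leading transcript holds 98.9% of Mfap2 in replicate 1 but 56.4% of Fbln2 and 61.4% of Emilin1.

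Exon 9 of Fbln2, shown above, was nearly absent from the full-length form. The form that contains it was at 0.66 and 1.41 TPM, and the form that skips it at 125 and 137 TPM. The form with the exon made up 0.524% and 1.02% of both forms together, a mean of 0.770% ± 0.348. The expected counts behind the form with the exon were 65.6 and 106, estimates that divide reads shared along the rest of the transcript, and the share was higher in replicate 2. Fbln2 has 3 short coding transcripts at its 5′ end, and each stayed at or below 2.23 TPM.

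Fbln1 was mainly of the fibulin-1C form. That form was at 151 and 144 TPM and the fibulin-1D form at 27.3 and 29.9 TPM. The fibulin-1D form made up 15.3% and 17.2% of both, a mean of 16.3% ± 1.34, so the fibulin-1C form was 5.53-fold above it in replicate 1 and 4.81-fold in replicate 2. The share differed between libraries by far less than the forms differed from each other.

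By the estimated levels of its annotated transcripts, Mfap2 came almost wholly from its downstream start. The starts themselves were not measured, and the estimates divide reads that the transcripts share. The leading transcript and a short noncoding one, which start 7 bases apart there, summed to 594 and 592 TPM. That was 99.7% of the gene's TPM in replicate 1 and 100% in replicate 2. The coding transcript from the upstream start was at 1.54 TPM in replicate 1 and listed at 0 in replicate 2. Fbn1 has an annotated transcript from a start upstream of its leading one too, and it was listed at 0 in both libraries. Mfap4 gave 86.1% of its TPM in each library to its 1722-base coding transcript and 11.9% and 12.4% to a coding transcript of 939 bases. A 1506-base transcript led Mfap5 with 55.3% and 75.2%, from 24.7 and 22.8 expected counts, but with 27.0% and 37.0% of the posterior mean TPM, where it still led.

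The 2 libraries were compared next. The ratio of replicate 2 to replicate 1 was taken from expected counts scaled by TMM, edgeR's trimmed mean of M values, in genes with a mean of 100 counts or more, which left out Mfap5. None of the 9 genes passed 1.5-fold, where 3.20% of 12730 gene rows did, so this count does not set the genes apart. With 1 library per replicate this ratio has no replicate check, and its interval, an exact Clopper-Pearson 95% interval of the 2 counts, covers counting error only. The 9 log2 ratios ran from -0.12 for Fbln1 to 0.37 for Fbln5, with a median of 0.09, beside -0.03 over all tested gene rows. Their median size regardless of sign was 0.12, beside 0.11 over all tested gene rows.

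Of the 9 genes, 7 were higher in replicate 2 and 2, Fbln1 and Mfap2, were higher in replicate 1. Fbln5 had the largest ratio, 1.30-fold with a counting interval of 1.23 to 1.36. Fbn1 was 1.21-fold (1.15 to 1.27), Mfap4 1.19-fold (1.15 to 1.23) and Fbn2 1.18-fold (1.15 to 1.21). Fbln1 was at 0.919-fold (0.890 to 0.948) and Mfap2 at 0.928-fold (0.903 to 0.954). For 8 of the 9 the counting interval left out equality, and Eln, at 1.05-fold (0.991 to 1.11), was the exception. Over all tested gene rows that share was 44.2%, and it grows with the counts of a gene, since the interval covers counting error only. The log2 ratio of Emilin1 was 0.09 by counts but 0.36 by TPM. Relative to the median of all tested gene rows on each scale it was 0.12 and 0.29. TPM is per effective length, and that of Emilin1 was 2581 nt in replicate 1 and 2307 nt in replicate 2. The 601-base transcript of Emilin1 had a larger share in replicate 2, and how much of the gap goes with it was not tested.

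**Figure D3:**
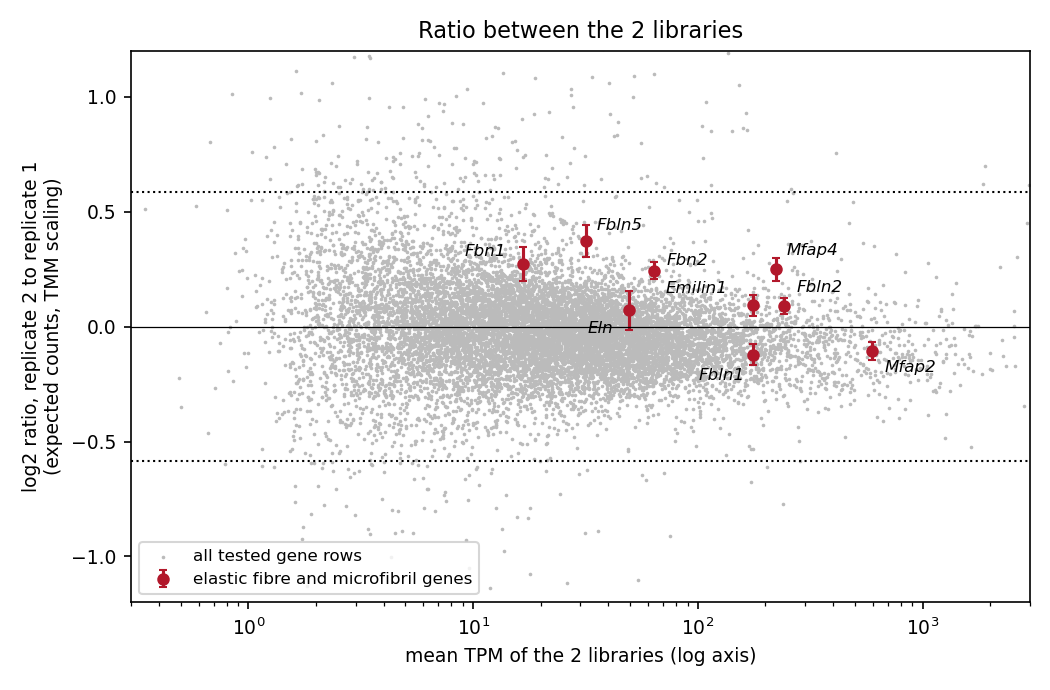
Log2 ratio of replicate 2 to replicate 1 (expected counts, TMM scaling) against mean TPM (log axis), for all tested gene rows (grey) and the 9 tested elastic fibre and microfibril genes (red, with 95% counting intervals). Dotted lines mark 1.5-fold, and 153 grey points lie beyond the axes. All 9 genes lie between the dotted lines, from -0.12 to 0.37.

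The heart and liver markers named above were also higher in replicate 2, cartilage markers had a summed level of 421 and 562 TPM, and bone markers one of 440 and 319 TPM in replicates 1 and 2. Epithelial markers summed to 1006 and 961 TPM and skeletal muscle markers to 131 and 176 TPM. Of the skeletal muscle markers, only Actc1 was higher in replicate 2 by counts. Myod1 (0.674-fold), Myog (0.672-fold), Myh3 (0.834-fold) and Myf5 (0.876-fold) were lower. The bone, epithelium and skeletal muscle lists each had 1 gene past 1.5-fold, Ibsp at 0.586-fold, Krt8 at 2.13-fold and Actc1 at 1.53-fold. The epithelial markers did not move together. Krt5 (0.772-fold) and Krt14 (0.792-fold) were lower in replicate 2, while Epcam (1.46-fold) and Cdh1 (1.12-fold) were higher. Whether these marker differences play a part in the ratios of the elastic fibre genes was not tested. The direction of a ratio depends on the scaling. With ERCC spike-in totals the median of all tested gene rows moved by 0.56 on the log2 scale, all 9 genes had ratios above 0 and 7 passed 1.5-fold, as did 37.0% of all rows. Relative to that median, none of the 9 passed 1.5-fold, and again 7 were above it and Fbln1 and Mfap2 below.

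A further 69 genes in 7 lists cover the other parts of the elastic fibre pathway, from related fibre proteins to the enzymes, receptors and growth factors that act on them. Of these, 64 passed the same limit of 1 TPM in each library, which 60.9% of protein-coding genes passed. Of the 60 with enough counts, 6 passed 1.5-fold between the libraries, 5 higher in replicate 2 (Ltbp2, Thsd4, Adamtsl3, Itgb5 and Itga9) and 1 higher in replicate 1 (Loxl4), where 3.20% of all tested gene rows passed in either direction. The lists were made with earlier results of these data known, and their medians are descriptions.

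**Figure D4:**
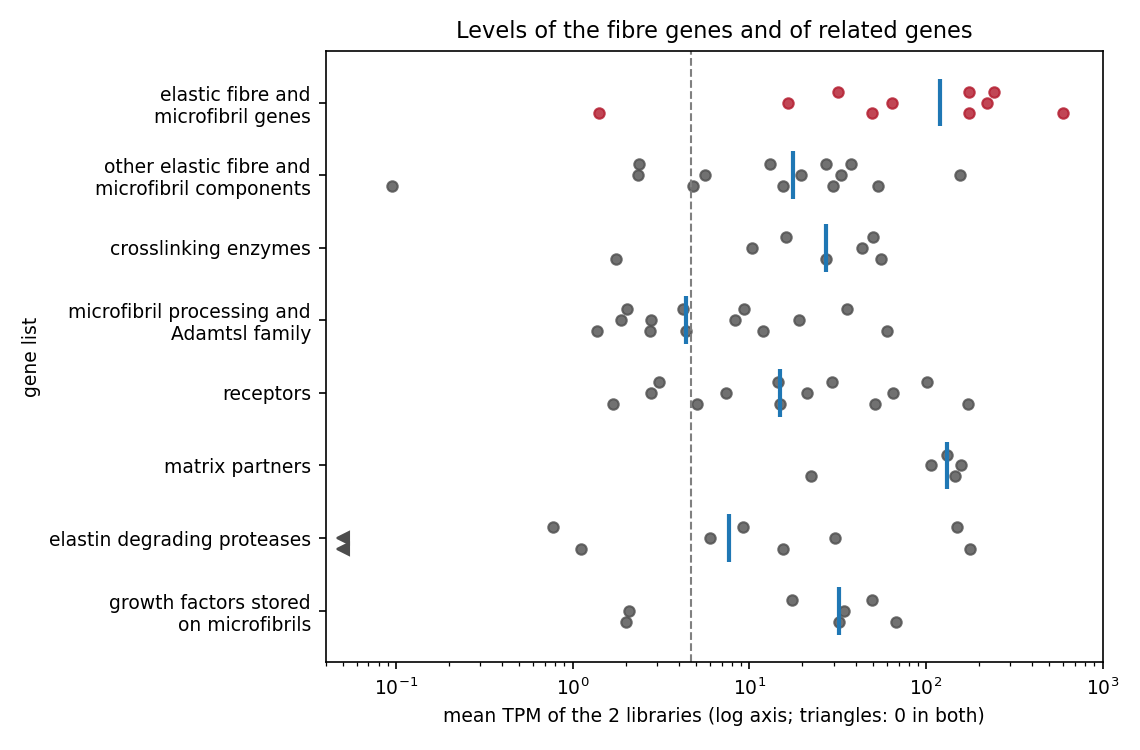
Mean TPM of the 2 libraries (log axis) for the 10 elastic fibre and microfibril genes (red) and for 7 lists of related genes (grey), each point a gene. Blue bars are list medians, the dashed line is the median of all protein-coding genes, 4.68 TPM, and triangles are genes at 0 in both libraries. The medians run from 4.38 TPM for microfibril processing genes to 132 TPM for matrix partners.

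Among 14 other fibre and microfibril components, 13 were detected, with a median of 17.6 TPM. Efemp2 (fibulin-4), needed in mice to bring lysyl oxidase to elastin, led them at 159 and 154 TPM. Efemp1 (fibulin-3) was at 54.1 and 53.4 TPM, and Efemp2 exceeded it 2.95-fold and 2.88-fold. Mfap3 was at 36.1 and 39.0 TPM. None of the 3 passed 1.5-fold between the libraries. By counts Efemp2 was at 0.871-fold (0.832 to 0.911), Efemp1 at 0.908-fold (0.846 to 0.975) and Mfap3 at 0.932-fold (0.880 to 0.986). Efemp2 was lower than Fbln2 and Fbln1 but above Fbln5. It was above the 126 and 139 TPM of Fbln2 over full-length transcripts, a split not made for Efemp2 itself. Ltbp2, a latent TGF-beta binding protein relative that sits on microfibrils, was low and unequal, at 1.29 and 3.42 TPM, with a ratio by counts of 2.08-fold (1.73 to 2.53).

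All 7 crosslinking enzymes were detected, with a median of 27.3 TPM. Lox, lysyl oxidase, which crosslinks elastin and collagen, was at 51.2 and 60.3 TPM. Eln was 0.909-fold and 0.869-fold of Lox. Bmp1, the protease that activates lysyl oxidase, was at 47.5 and 53.0 TPM, and Loxl2 at 41.2 and 46.0 TPM. Loxl4, a lysyl oxidase relative, was at 2.21 and 1.30 TPM and had a ratio of 0.547-fold (0.408 to 0.717), the 1 enzyme past 1.5-fold. That interval reaches changes smaller than 1.5-fold, so counting error alone can place Loxl4 on either side. Loxl1, the partner of Fbln5 in mouse elastic fibres, was added for that link after its values were seen, at 22.9 and 31.8 TPM. Fbln5 was 1.17-fold above Loxl1 in both libraries, and both were higher in replicate 2. As the pair was picked with its values known, this is a description only.

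All 13 genes of microfibril processing and the Adamtsl family were detected, with a median of 4.38 TPM. Adamts10, a metalloprotease that promotes fibrillin microfibrils, was highest at 53.4 and 67.2 TPM, followed by Adamtsl1 at 34.7 and 36.5 TPM. Pcsk5, a proprotein convertase, was at 19.8 and 18.5 TPM. Thsd4 (ADAMTSL6), which promotes fibrillin-1 assembly, was at 10.2 and 13.7 TPM with a ratio of 1.51-fold (1.39 to 1.65), just past the threshold. Adamtsl3 was at 2.82 and 5.95 TPM with a ratio of 1.65-fold (1.40 to 1.95). Both intervals reach below 1.5-fold, so counting error alone can place these genes on either side.

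All 13 receptor genes, integrins and the elastin receptor complex, were detected, with a median of 14.9 TPM. Itgb1, the common integrin beta chain, was at 163 and 183 TPM. Ctsa, the protective protein of the elastin receptor complex, was at 104 and 99.1 TPM. Itgav, the alpha chain of several integrins that bind fibrillin, was at 59.7 and 71.2 TPM. Itgb5, a beta chain that pairs with it, was at 32.7 and 70.7 TPM, a ratio of 2.00-fold (1.89 to 2.11), the largest count-based shift between libraries in this list. Itga9 was at 5.57 and 9.22 TPM, a ratio of 1.54-fold (1.41 to 1.69), an interval that reaches below 1.5-fold.

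The 5 matrix partners had the highest median of the lists, 132 TPM, and all were detected. Fn1, fibronectin, on which fibrillin assembly depends in cultured cells, was at 141 and 174 TPM, Dcn, decorin, at 151 and 142 TPM, and Vcan, versican, at 128 and 136 TPM. None passed 1.5-fold. Of 10 proteases able to degrade elastin, 6 were detected, with a median of 7.64 TPM. Mmp2 was highest at 164 and 191 TPM, then Mmp14, its activator, at 148 and 152 TPM, and Ctsk at 28.9 and 32.1 TPM. Mmp7 and Mmp12, the latter known as macrophage elastase, had 0 counts in both libraries, which allows up to 0.105 and 0.132 CPM in replicates 1 and 2, for counting error only. The deposited interval of Mmp12 reached higher, to 0.923 and 1.19 TPM, around a posterior mean of 0.45 and 0.58 TPM. That of Mmp7 reached 0.142 and 0.184 TPM. Mmp2 and Mmp14 were the only 2 of the 10 proteases above 100 TPM.

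All 7 growth factors stored on microfibrils were detected, with a median of 32.2 TPM. Tgfb2, a ligand whose loss gives craniofacial defects in mice, was highest at 56.1 and 78.7 TPM. Bmp4 was at 51.8 and 47.4 TPM, and Tgfb3, needed for fusion of the mouse palate, at 32.4 and 36.9 TPM. Tgfb2 exceeded Tgfb3 1.73-fold and 2.13-fold. None of the 5 with enough counts passed 1.5-fold between libraries.

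Of the other cell types that express elastic fibre genes, smooth muscle and pericytes had 5 of 7 markers detected, with summed levels of 129 and 145 TPM. Acta2 was at 56.2 and 59.4 TPM and Pdgfrb at 43.2 and 56.1 TPM, while Myh11, the smooth muscle myosin, was at 0.42 and 0.46 TPM. All 5 endothelial markers were detected, at sums of 129 and 144 TPM, and all 3 tendon markers, at sums of 36.8 and 38.9 TPM. None of these 3 lists had a gene past 1.5-fold among those with enough counts. Cnn1, a smooth muscle marker left out by the count limit with 24 and 62 counts, was 3.08-fold higher in replicate 2 (1.94 to 5.30). Which cells produced the transcripts of the 10 genes was not tested and cannot be read from bulk tissue.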

How the data were processed

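Total RNA was measured in 2 libraries of 1 tissue, with spike-ins and 10 ng of input RNA longer than 200 nt, as the labels state. Expected counts and posterior mean counts are the authors' estimated reads per gene or transcript, per the file headers. TPM was deposited per effective length, which is the transcript length less 99 nt, and has the same fixed total over all rows, spike-ins included, in each library. FPKM was deposited per gene and used as an alternative. The deposited bounds of the credibility interval are a signal column in TPM units, and their level is not stated in the headers. Per the deposited notes the assembly was mm10 with GENCODE M4. Aligner, quantifier and strandedness are not given in the sources used here. Symbols, transcript names and locations are from GENCODE M21 (GRCm38) by ID without version, which named 42462 of 43346 gene rows.

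Expected counts were rounded, with a prior count of 1, and scaled by TMM over gene rows (edgeR 4.0.16, R 4.3.3), with intervals from scipy 1.17.1. No significance test was possible with 1 group of 2 libraries. The ratio step was tested on simulated data. Spread is the SD over 2 libraries, and depth was 30451502 and 23777465 expected counts over all rows. Genes and lists were chosen with earlier results of these data known. Named in the text were the 10 genes and, from each list, the 3 highest in TPM and each gene past 1.5-fold between libraries; genes named outside that rule were chosen after their values were seen. Alternatives covered scaling (DESeq2 1.42.0 size factors among them), thresholds, units and each library left out.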

Additional observations from a re-analysis of the deposited data

How the results depend on the processing

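All 10 genes were detected at 0.5 TPM and in either library alone, and 9 at 5 TPM, all but Mfap5. The median level of 120 TPM became 135 when TPM was rescaled without spike-ins, 82.1 as FPKM and 84.4 over full-length transcripts, an alternative added after seeing the data, and lay between 105 and 123 with 1 library left out. Rescaling moved the median of other components to 20.0, receptors to 16.8, matrix partners to 149, proteases to 8.65 and growth factors to 36.5 TPM, as the spike-in share leaves the total. With 1 library left out the growth factor median lay between 31.8 and 32.4. Of 45 pairs, 35 to 45 were apart under the alternatives, which did not all use the full rule. Single libraries used the intervals alone and gave 44 and 45. Expected counts not divided by length gave 35 and full-length transcripts 44, both by the log2 ratio and its SD alone. A pair could be apart in the reverse order, as Mfap4 and Fbn2 were on expected counts (log2 ratio -0.97). On that scale Fbln2 was first, Fbn2 took place 2 and Mfap2 place 3. The count past 1.5-fold was 7 under ERCC spike-in totals and 1 (Fbln5) at the lower fold threshold tried, where 10.6% of all rows passed, and 0 under the other alternatives. Under each alternative all 7 genes with several transcripts had the leading transcript given above. No paired analysis was possible because there is 1 group. Depth limits Mfap5, with 36 and 27 counts.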
